A study of Mus musculus with 48 samples.

Results

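The nuclear genes of oxidative phosphorylation were followed through single-cell transcriptomes of 5 organs from healthy and arthritic mice. They were taken by symbol: names that start with Nduf, Uqcr, Cox4 to Cox8 or Atp5, together with Sdha, Sdhb, Sdhc, Sdhd, Cyc1 and Cycs, and with pseudogene names (-ps) left out. This gave 93 of the 34586 genes in the table. They comprised 38 complex I subunits, 8 complex I assembly factors, 4 subunits of complex II, 9 of complex III, cytochrome c (Cycs), 16 genes of complex IV and 17 of ATP synthase. The mitochondrial genome adds 13 protein genes (prefix mt-), which were set beside them. Nuclear genes were grouped by symbol alone. Atp5sl, counted here with ATP synthase, is named Dmac2 in GENCODE, so its place there is by name only.

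Complexes I and II pass electrons from NADH and succinate to ubiquinone, complex III passes them on to cytochrome c, and complex IV hands them to oxygen. Complexes I, III and IV pump protons across the inner mitochondrial membrane, and ATP synthase uses the returning protons to make ATP. Every one of these complexes except complex II is built from subunits of both genomes, so nuclear and mitochondrial transcripts have to be supplied together. Macrophages, neutrophils, lymphocytes and fibroblasts are known to differ in how far they draw on this pathway or on glycolysis.

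All animals were male DBA1/J mice. The 4 healthy mice (H3, H4, H6 and H7) were compared with 6 mice with collagen-induced arthritis (CIA; S1, S2, S3, S5, S6 and S8), which had received 100 µg of bovine type II collagen in complete Freund's adjuvant near the tail base and a booster in incomplete adjuvant on day 20. Joint, lung, muscle, skin and spleen were dissociated after cryopreservation and profiled by Seq-Well, a microwell method that counts the 3′ ends of transcripts by unique molecular identifiers (UMIs), 1 library per mouse and organ. S1, S2 and S3 had an arthritis score of 8 and are called severe here, while S5, S6 and S8 had scores between 2 and 5 and are called mild. The severe mice and H3 carry the sample prefix 2CIA and the mild mice and the other healthy mice the prefix CIA, so severity and prefix cannot be told apart among the CIA mice.

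The table held 48 libraries and 13240 cells, of which 12096 carried 1 of 13 cell type labels from the study. Library totals ran from 17748 to 1645734 UMIs (median 124585.5) and the median labelled cell held 675 UMIs, so values below rest on UMIs summed over the cells of a mouse. The label's own markers were highest in the cells of that label for 8 of the 13 labels. They were not for the labels Dendritic cells, Monocytes, T cells, Neutrophils and Myocytes. The Myocytes label ranked only 7 for its own markers and 1492 of its 1625 cells came from the muscle of S6, so it is read here as a label and not as muscle fibres. Of 13164 distinct barcodes, 59 occurred in more than 1 library.

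Promoter sequence is given for the 4 members whose level differed between organs, described further on, and for Cox6a1, a member whose promoter held several matches of the binding sequences searched. RefSeq promoters (GRCm38.p6, 250 bases before to 50 bases after the gene start) were matched for 77 of the 93 members. The letters of nuclear respiratory factor 1 (NRF1; GCGCA and GCGC with any base between them) occurred on either strand in 18 of the 77 (23.4%), against 4.78% of all 27025 promoters of that length. The ETS-type sequence CCGGAAG, which GABPA binds, occurred in 17 (22.1% against 9.12%), and the YY1 sequence AAGATGGCG in 8 (10.4% against 1.49%). The TATAAA box occurred in 6 (7.79% against 14.2%). In the sequences below, capitals mark NRF1, ETS-type and YY1 matches. Uqcrh (chr4:116075021-116075320, minus strand) and Cox8a (chr19:7217567-7217866, minus strand) held 1 and 2 ETS-type matches, Cox6a1 (chr5:115348909-115349208, minus strand) held 2 NRF1 matches and 1 ETS-type match, and Ndufa7 (chr17:33824322-33824621, plus strand) and Ndufa13 (chr8:69901971-69902270, minus strand) held none. By GENCODE the minus-strand gene Ndufa13 begins at 69902558. Its window, set by the RefSeq start, therefore lies inside the GENCODE gene, and the sequence before the GENCODE start was not searched.
Uqcrh: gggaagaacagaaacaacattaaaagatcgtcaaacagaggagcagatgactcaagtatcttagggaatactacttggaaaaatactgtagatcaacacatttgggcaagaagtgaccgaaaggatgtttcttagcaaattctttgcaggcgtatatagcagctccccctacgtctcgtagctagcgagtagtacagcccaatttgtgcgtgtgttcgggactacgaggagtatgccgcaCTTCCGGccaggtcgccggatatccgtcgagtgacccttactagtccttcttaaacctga
Cox8a: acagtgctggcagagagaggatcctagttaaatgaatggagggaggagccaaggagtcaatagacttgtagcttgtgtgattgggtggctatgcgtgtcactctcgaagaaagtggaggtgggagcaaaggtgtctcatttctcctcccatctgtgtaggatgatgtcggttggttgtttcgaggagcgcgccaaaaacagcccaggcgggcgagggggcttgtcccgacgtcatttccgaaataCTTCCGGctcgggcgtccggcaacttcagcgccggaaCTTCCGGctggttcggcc
Cox6a1: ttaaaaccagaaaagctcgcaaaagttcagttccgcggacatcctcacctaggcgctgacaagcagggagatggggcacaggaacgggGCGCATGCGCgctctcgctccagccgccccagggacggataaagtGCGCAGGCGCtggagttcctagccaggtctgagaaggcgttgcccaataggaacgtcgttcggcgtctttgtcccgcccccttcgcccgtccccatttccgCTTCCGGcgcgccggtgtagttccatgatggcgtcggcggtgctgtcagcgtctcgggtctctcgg
Ndufa7: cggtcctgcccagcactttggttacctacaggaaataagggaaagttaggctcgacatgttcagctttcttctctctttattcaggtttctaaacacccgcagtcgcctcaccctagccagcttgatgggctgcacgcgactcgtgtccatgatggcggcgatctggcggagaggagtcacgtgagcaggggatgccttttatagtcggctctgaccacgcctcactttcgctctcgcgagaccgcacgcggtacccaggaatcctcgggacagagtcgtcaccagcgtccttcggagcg
Ndufa13: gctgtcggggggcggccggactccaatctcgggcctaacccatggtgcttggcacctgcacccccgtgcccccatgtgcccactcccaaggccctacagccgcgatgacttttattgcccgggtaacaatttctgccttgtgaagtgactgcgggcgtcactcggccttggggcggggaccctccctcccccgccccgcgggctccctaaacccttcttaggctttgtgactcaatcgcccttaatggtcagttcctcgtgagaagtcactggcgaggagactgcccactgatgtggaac

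All 93 nuclear members had UMIs. By GENCODE, exons of 5 members overlap those of another gene on the same strand and exons of 29 on the opposite strand, among the latter Cox4i1, Cox6c, Atp5j, Ndufa13, Ndufa4l2 and Cox6a2, and whether the counting used strand is not given in the sources used here. Together they took 203770 UMIs, or 1.91% of the UMIs of the labelled cells. Complex I subunits held 0.651% of all UMIs, complex IV 0.499%, ATP synthase 0.463% and complex III 0.246%. Complex II took 0.0323%, the complex I assembly factors 0.0192% and Cycs 0.00363%. The list was uneven, since its 10 highest members held 33.6% of its UMIs while 23 members had under 500 UMIs each, and 52 members had a UMI in every library.

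Because 3′ ends were counted, a member's UMIs scaled to a total of 1000000 UMIs (CPM) are not scaled by transcript length. Cox4i1, the common isoform of complex IV subunit 4, led with 1272 ± 281 CPM (SD, n = 48 libraries) and 7.21% of all member UMIs. Cox6c, another complex IV subunit, followed with 916 ± 330 CPM. The next in order were Atp5e (827 CPM), Atp5j (695 CPM), Uqcrq (663 CPM), Ndufa4 (618 CPM), Atp5l (554 CPM), Ndufb8 (535 CPM), Uqcr10 (495 CPM) and Uqcr11 (477 CPM). Ndufa4 is a complex I gene by name, although its product is now placed with complex IV. The products of these genes are small subunits, several of them supernumerary, rather than the catalytic cores.

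The 13 mt- protein genes took 71572 UMIs (0.672%), about 1 for every 3 nuclear UMIs, and they were covered unevenly. mt-Nd1 alone held 22041 of these UMIs (30.8%), followed by mt-Cytb (16017), mt-Nd2 (11130), mt-Co1 (9289), mt-Nd4 (7479), mt-Nd5 (4763) and mt-Nd6 (760). mt-Co3 had 63 UMIs, mt-Atp6 19, mt-Co2 10 and mt-Atp8 1, and mt-Nd3 and mt-Nd4l had none. The sum of the mt- protein genes therefore stands mainly for complex I subunits, mt-Cytb and mt-Co1. For scale, the mitochondrial rRNAs took 6.71% of UMIs, 91 cytosolic ribosomal protein genes 9.15%, 16 glycolysis genes 0.107% and 13 citric acid cycle genes 0.0503%. Cells above 20% mitochondrial UMIs had been removed by the authors before deposit, so the mitochondrial values have a ceiling per cell.

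Skin keratinocytes of the label Basal III cells stood highest for the nuclear members and granulocytes lowest. The labels came from clusters of the same cells, so this order is a description and was not tested. In Basal III cells of the skin the members took 3.49 ± 0.33% of UMIs (SD, n = 10 mice, 3.04 to 4.04%). Joint granulocytes were at the other end with 0.988 ± 0.148% (n = 5, 0.829 to 1.20%), and these ranges were far apart. Mean depths were 1077 UMIs per Basal III cell and 923 UMIs per joint granulocyte. The share also depends on what else a cell holds. The 4 granulocyte markers stood at 388610 CPM in the Granulocytes label, and the 6 neutrophil markers at 169364 CPM in the Neutrophils label. This leaves less of the total for every other gene. It bears on all shares and levels of these 2 labels here and below, and its part in the order was not tested.

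Between these ends the order changed in small steps. Spleen T cells (2.74 ± 0.71%, n = 6) and joint T cells (2.35 ± 0.99%, n = 6) were high but varied widely between mice. Joint macrophages (2.16 ± 0.42%, n = 7), muscle macrophages (2.12 ± 0.34%, n = 7), spleen monocytes (2.10 ± 0.40%, n = 10) and joint fibroblasts (1.96 ± 0.51%, n = 6) differed from each other by less than 1 SD. Spleen B cells (1.40 ± 0.22%, n = 10), spleen dendritic cells (1.32 ± 0.26%, n = 6), spleen granulocytes (1.21 ± 0.20%, n = 3) and muscle granulocytes (1.11 ± 0.09%, n = 3) were at the low end, together with muscle neutrophils (1.24 ± 0.34%, n = 3), and lay close to each other.

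**Figure D1:**
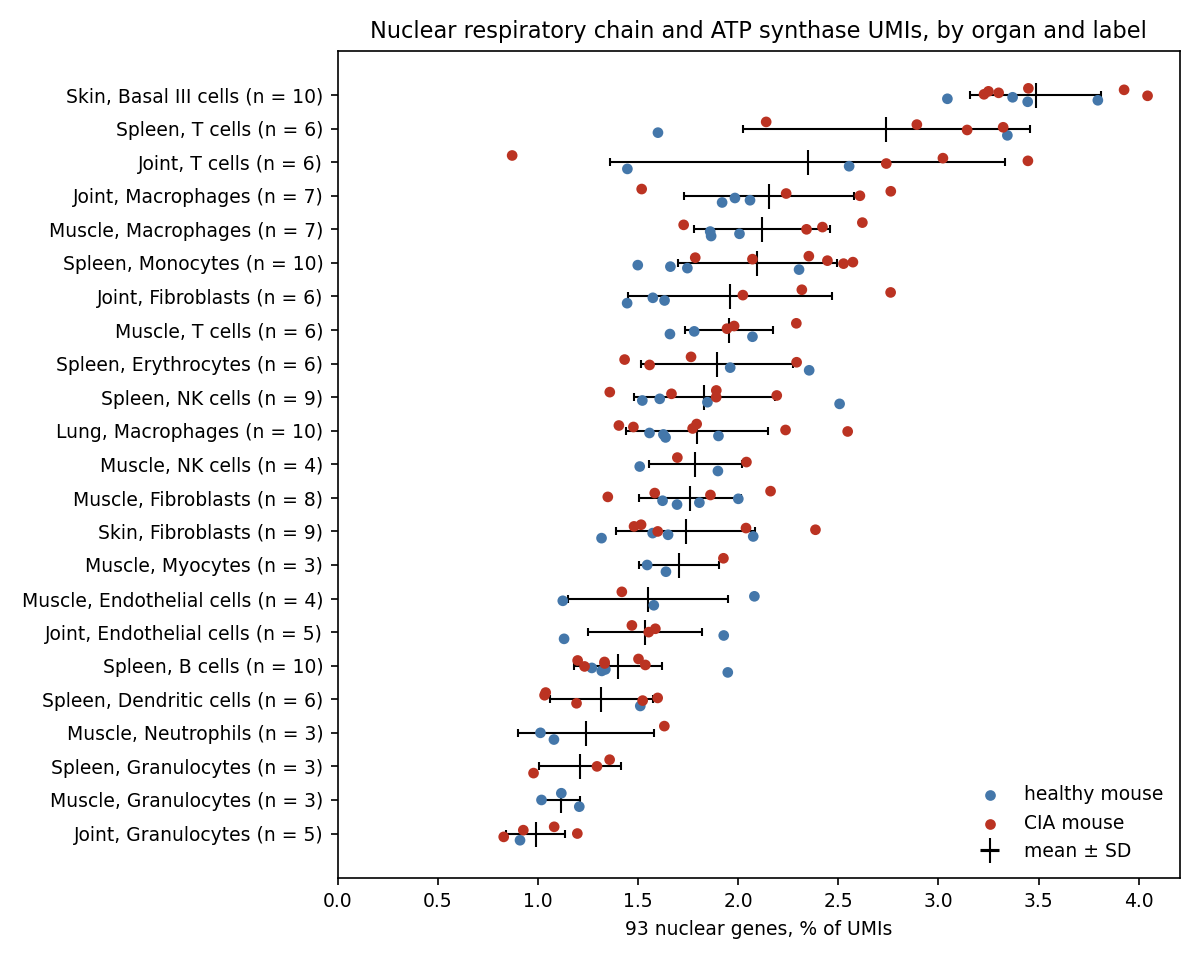
Share of UMIs on the 93 nuclear members (horizontal axis, percent of all UMIs of the cells) by organ and cell type label, 1 point per mouse with at least 10 cells, coloured by disease, with the mean ± SD. Basal III cells of the skin lie between 3.04 and 4.04%, and joint granulocytes between 0.829 and 1.20%.

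Part of the order held inside single animals, where library preparation of an organ is shared. Basal III cells were above skin fibroblasts in 9 of 9 mice, with a median ratio of 2.14 (1.35 to 2.62). Spleen T cells were above spleen B cells in 6 of 6 mice (median ratio 1.94), and spleen monocytes were above B cells in 10 of 10 (1.52). In the joint, macrophages were above granulocytes in 5 of 5 mice (2.11) and fibroblasts in 4 of 4 (2.37). Muscle macrophages were above muscle granulocytes in 3 of 3 mice (1.67) but above muscle T cells in only 5 of 6 (1.17).

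For complexes I and III and ATP synthase, the make-up of the list differed much less than its sum. Complex I subunits held from 31.5% of the member UMIs in muscle macrophages to 38.1% in spleen granulocytes. Complex III ran from 9.97% in joint granulocytes to 15.1% in Basal III cells, and ATP synthase from 21.4% in muscle endothelial cells to 28.6% in spleen erythrocytes. Complex II, which also belongs to the citric acid cycle, stayed between 0.992 and 2.30%.

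Single members led in different labels. Among members of at least 50 CPM in a label, 72 of 75 were higher in Basal III cells than the mean of the other labels, against 3 of 56 in granulocytes. The largest ratio in Basal III cells belonged to Ndufa9, a complex I subunit (77.8 ± 56.7 CPM, 3.78 times the other labels), and the 1 in granulocytes to Ndufb7 (271 ± 128 CPM, 1.42 times). In macrophages Sdhb, the iron-sulphur subunit of complex II, led with 248 ± 95.4 CPM (1.58 times). In B cells it was Cox7a2l (151 ± 65.6 CPM, 1.42 times), whose product joins complexes III and IV into supercomplexes. Uqcrc2, a core subunit of complex III, led in T cells (94.9 ± 185 CPM, 2.94 times), with an SD larger than its mean. Ndufs1, the largest complex I subunit, led under the Myocytes label (88.2 ± 92.1 CPM, 3.15 times), also with an SD above the mean. Few UMIs of the label lie behind the highest of these ratios, with 49 for Ndufa9, 66 for Uqcrc2 and 38 for Ndufs1.

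Tissue-restricted isoforms were rare beside their common partners. Cox4i1 had 14684 UMIs and Cox4i2 39, Cox6a1 had 4927 and the heart and muscle isoform Cox6a2 113, and Cox6b1 had 3704 and the testis isoform Cox6b2 147. Cox7a2 had 4795 UMIs, Cox7a2l 1247 and the heart and muscle isoform Cox7a1 75. Cox8a had 4430 UMIs and Cox8b 36, and Ndufa4 had 5761 and Ndufa4l2 174. The alternatives were closer in other sets. Cox5a had 2421 UMIs and Cox5b 1613, which are separate subunits, and the genes of ATP synthase subunit c, Atp5g1, Atp5g3 and Atp5g2, had 1316, 1378 and 80. Cox7b (4372 UMIs) had no partner to set beside it, since Cox7b2 and Cox8c are not in the table.

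The rare isoforms were not spread evenly. Ndufa4l2, a paralogue of Ndufa4 known as a hypoxia-inducible gene, had 104 of its 174 UMIs (59.8%) in joint fibroblasts, or 138 CPM with an exact Poisson interval of 113 to 167 that covers counting error only. Its UMIs came from 7 of 8 mice with such cells. Of these UMIs, 61 were from S5 (216 CPM) and 33 from S1 (154 CPM), while the other mice with at least 10 fibroblasts had 2 or 3 UMIs each (29.1 to 77.6 CPM). The healthy mice lay inside the range of the CIA mice. Cox4i2, the isoform linked to low oxygen, had 21 of its 39 UMIs (53.8%) in the same cells.

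Cox6a2 had its largest count in spleen monocytes, with 33 UMIs (29.2% of its UMIs, 63.4 CPM, exact Poisson interval 43.7 to 89.1) from 8 of 10 mice. The intervals of joint macrophages (36.0 CPM, 18.6 to 62.9) and muscle macrophages (34.3 CPM, 16.5 to 63.1) overlapped that of the monocytes. Siglech, a marker of plasmacytoid dendritic cells, had a UMI in 14 of the 25 monocyte-labelled cells with a Cox6a2 UMI (56.0%, exact binomial interval 34.9 to 75.6%). It had a UMI in 39 of the 503 monocytes without a Cox6a2 UMI (7.75%, 5.57 to 10.4%), at median depths of 712 and 820 UMIs, and in 5 of 1179 B cells without a Cox6a2 UMI (0.424%). These Siglech values were looked at after the Cox6a2 counts were seen. Cox6b2 had 24 UMIs in spleen erythrocytes (16.3% of its UMIs, 94.6 CPM, exact Poisson interval 60.6 to 141), of which 15 came from S2. Muscle dendritic cells stood at 119 CPM from only 5 UMIs (38.7 to 278), so the erythrocytes were not set apart from them.

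Whether arthritis changed these genes was asked in 16 comparisons of CIA with healthy mice, 11 of a cell type in an organ and 5 of all labelled cells of an organ. UMIs were summed per mouse, and the edgeR quasi-likelihood test was adjusted by the Benjamini-Hochberg method over all genes tested in that comparison. Between 2 and 71 members could be tested in a comparison, 73 in at least 1 and 20 in none. No member passed an adjusted p of 0.05 in any of the 16. DESeq2 called 1, Uqcrq in lung macrophages. Of the 643 member tests, 24 (3.73%) had an unadjusted p below 0.05 with higher and 3 (0.467%) with lower levels in CIA, against 3.84% and 4.08% of all gene tests. The adjusted threshold was passed by few genes of any kind. It was passed by 0.0% of the genes tested in Basal III cells, skin fibroblasts, muscle fibroblasts, spleen B cells, spleen NK cells and all skin cells. The share was 0.0511% in muscle T cells, 0.183% in muscle macrophages, 1.68% in joint fibroblasts, 6.36% in spleen monocytes, 6.51% in lung macrophages and 10.3% in joint macrophages. For all cells of an organ it was 0.055% in muscle, 0.127% in joint, 0.137% in spleen and 4.96% in lung. All the comparisons of 1 organ use the same mice, and the all-cell comparisons contain the cells of the cell type comparisons.

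The summed share of the nuclear members is given per mouse, without a test. Its CIA mean was above the healthy mean in all 5 all-cell comparisons, by ratios from 1.02 to 1.21, and in 8 of 11 cell types, where the ratio ran from 0.923 to 1.53. The direction was not stable in all of them. Among mice of the prefix CIA alone, where 14 of the comparisons kept at least 2 mice in each group, the CIA mean was higher in 3 of 5 all-cell comparisons and 6 of 9 cell types. The difference was then -0.377 percentage points in all joint cells, -0.145 in all lung cells, -0.137 in lung macrophages and -0.268 in skin fibroblasts, and it turned upward in muscle fibroblasts and spleen B cells. Leaving out H3, H7 or S3 also turned the direction in all joint cells, H6 in Basal III cells, and any of H4, H6, H7, S2 or S3 in all spleen cells. The groups did not overlap in 2 of the 16 comparisons, joint fibroblasts and all skin cells. Bulk sums of all cells of an organ cannot tell a change in cell numbers from a change within cells.

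**Figure D2:**
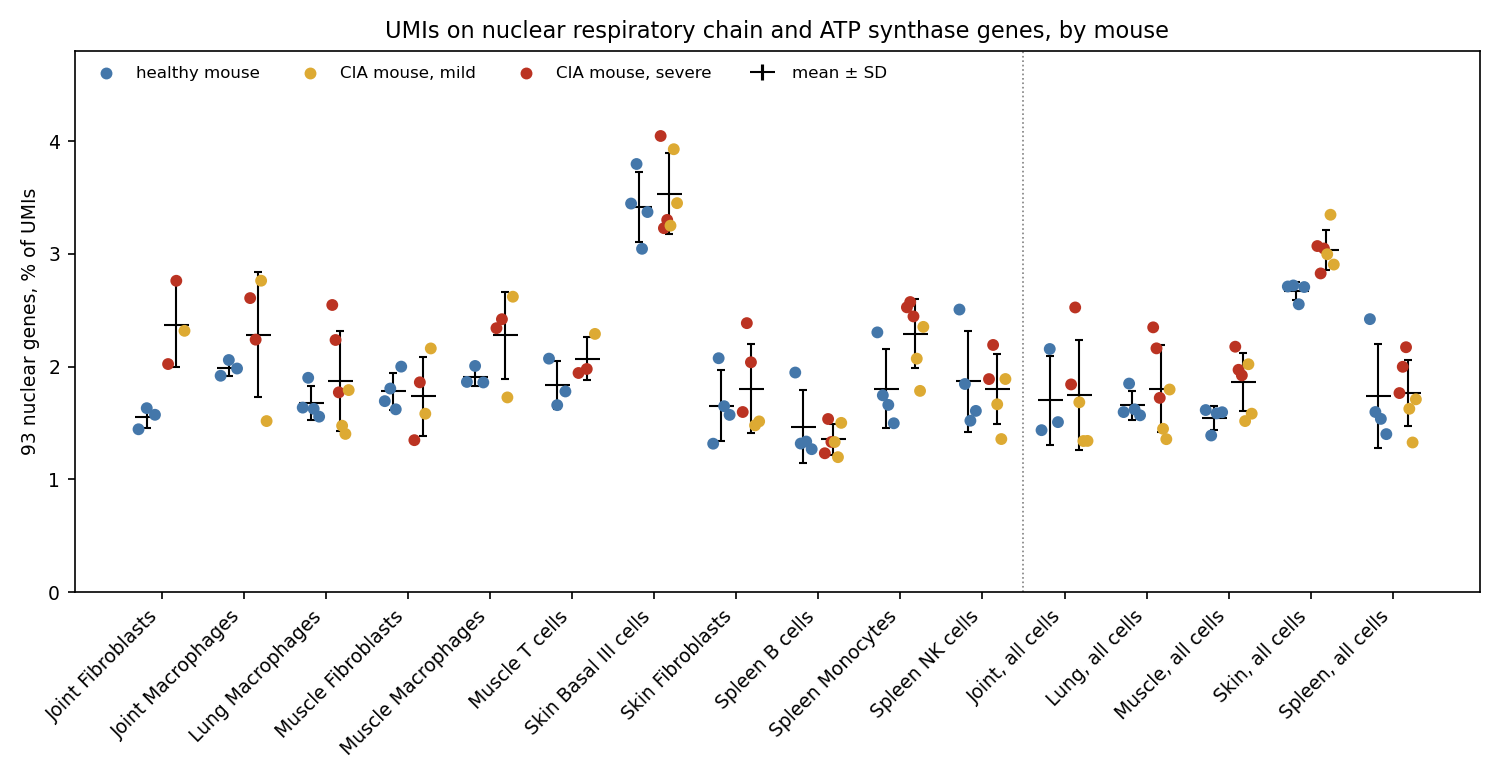
Share of UMIs on the 93 nuclear members (vertical axis, percent of all UMIs of the cells) in healthy and CIA mice for the 16 comparisons, 1 point per mouse (severe and mild CIA mice coloured apart) with the group mean ± SD. In joint fibroblasts the 3 CIA mice lie between 2.02 and 2.76% and the 3 healthy mice between 1.44 and 1.63%.

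Joint fibroblasts showed the widest gap. The nuclear members took 1.44, 1.63 and 1.57% of UMIs in healthy H3, H4 and H7, and 2.02, 2.76 and 2.32% in CIA mice S1, S3 and S5. The means were 1.55 ± 0.0956% and 2.37 ± 0.372%, a ratio of 1.53. Every CIA mouse was above every healthy mouse. The same order within each prefix (H3 against S1 and S3, and H4 and H7 against S5) follows from this and is not a further check. The same held for complex I (0.513 to 0.633% against 0.767 to 1.14%), complex III (0.161 to 0.203% against 0.255 to 0.395%), complex IV (0.381 to 0.424% against 0.478 to 0.650%) and ATP synthase (0.332 to 0.355% against 0.471 to 0.608%), while complex II overlapped (0.0232 to 0.0311% against 0.0233 to 0.0429%). Leaving out any 1 of the 6 mice kept the difference between 0.620 and 0.989 percentage points.

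By gene, 39 of the 43 members tested in joint fibroblasts were above 0 on the log2 scale, against 52.9% of all 1014 genes tested, and their median was 0.64 against 0.06. None passed the adjusted threshold, which 1.68% of all genes passed. At an unadjusted p below 0.05, 8 were higher and 0 lower, against 10.6% of all genes higher. DESeq2 called none. By complex, the members above 0 were 18 of 20 complex I subunits, 5 of 5 of complex III, 7 of 8 of complex IV and 9 of 10 of ATP synthase.

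Atp5k, which encodes a small membrane subunit of ATP synthase, had 206, 155 and 259 CPM in H3, H4 and H7 and 424, 699 and 454 CPM in S1, S3 and S5. The groups were apart, yet the log2 difference of 1.29 (SE 0.388) had an adjusted p of 0.143. Uqcrq, a small subunit of complex III, had 285, 310 and 285 CPM in the healthy mice and 564, 1355 and 603 CPM in the CIA mice, with S3 well above the others (log2 1.42, SE 0.444, adjusted p = 0.156). Cox6c had 696, 867 and 440 CPM against 1142, 1690 and 1663 CPM (log2 1.06, SE 0.412, adjusted p = 0.241). These 3 had the smallest p among members whose groups did not overlap.

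Markers of other cells moved with this difference. The 4 granulocyte markers took 0.139 to 0.590% of the UMIs of healthy joint fibroblasts and 1.32 to 2.95% in CIA, and the 6 Basal III markers 0.0929 to 0.176% and 0.205 to 0.414%. Fibroblast markers overlapped (2.55 to 4.19% and 1.92 to 5.66%). Depth also moved, from 797 to 1017 UMIs per cell in healthy mice to 1179 to 1763 in CIA mice. The part of these in the result was not tested. Citric acid cycle genes were at 0.0317 to 0.0492% in healthy and 0.0510 to 0.0709% in CIA mice, which did not overlap, while glycolysis genes did (0.0760 to 0.106% and 0.0903 to 0.138%).

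**Figure D3:**
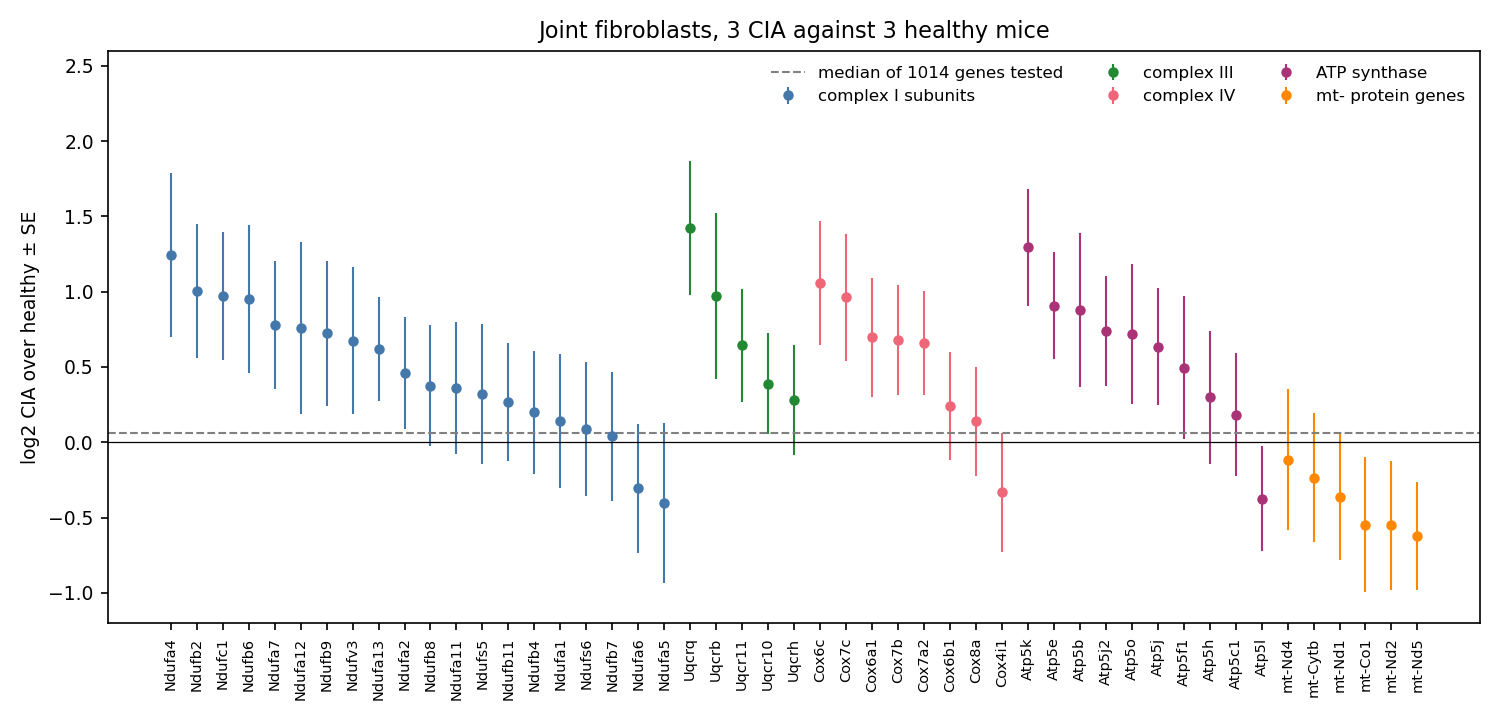
Log2 difference of CIA over healthy joint fibroblasts (vertical axis, ± SE) for the 43 nuclear members and 6 mt- protein genes tested, coloured by complex, 3 mice per group. The dashed line is the median of the 1014 genes tested (0.06), and 39 of the 43 nuclear members but none of the mt- protein genes lie above 0.

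In all skin cells the nuclear members took 2.55 to 2.72% of UMIs in the 4 healthy mice (mean 2.67 ± 0.0798%) and 2.83 to 3.35% in the 6 CIA mice (3.03 ± 0.179%). All CIA mice were above all healthy mice. Basal III cells, the label with the highest share, differed by less, with 3.41% in healthy and 3.53% in CIA mice and overlapping groups, as did skin fibroblasts (1.65 and 1.80%). With equal weight for Basal III cells and fibroblasts, the only skin labels with enough cells, the difference fell from 0.359 to 0.134 percentage points. Of 64 members tested in all skin cells, 7 were higher and 0 lower at an unadjusted p below 0.05, against 3.62% of all genes higher, and none passed the adjusted threshold by edgeR or DESeq2, nor did any of the 2180 genes tested (0.0%).

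The 3 skin members with separate groups and the smallest p were Ndufs5, Atp5j and Atp5g3. Ndufs5, a complex I subunit, ranged from 108 to 149 CPM (median 124) in healthy mice and from 181 to 288 CPM (median 209) in CIA mice (log2 0.74, SE 0.256, adjusted p = 0.616). In Basal III cells, whose UMIs are part of the all-skin sums, Ndufs5 was apart at 95.2 to 152 against 205 to 442 CPM (log2 0.90, SE 0.334, adjusted p = 0.692). There it passed the filter on low counts through the CIA mice, where it is high, and not through the healthy mice alone. That difference and p are therefore given as a description. Atp5j, a subunit of the stalk of ATP synthase, ranged from 592 to 964 CPM in healthy and 1003 to 1303 CPM in CIA mice (log2 0.45, adjusted p = 0.667). Atp5g3, one of the genes for the rotating ring, ranged from 53.8 to 158 and from 173 to 371 CPM (log2 0.70, adjusted p = 0.670). It passed the filter on low counts through the CIA mice, where it is high, and not through the healthy mice alone. Its values are therefore a description.

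In macrophages the CIA means were above the healthy means in 3 organs. Joint macrophages had 1.99% in healthy and 2.28% in CIA mice, muscle macrophages 1.91 and 2.28%, and lung macrophages 1.68 and 1.87%, all with overlap. In lung macrophages the direction turned with the prefix CIA alone, where H4, H6 and H7 had 1.90, 1.63 and 1.56% and S5, S6 and S8 1.48, 1.40 and 1.79%. Leaving out 1 mouse moved the joint difference from 0.294 to between 0.134 (without S5) and 0.549 (without S8) percentage points. In muscle macrophages 28 of 30 members tested lay above 0, against 53.0% of all genes, with a median of 0.36 against 0.04, but 1 had an unadjusted p below 0.05, against 3.67% of all genes higher. That member was Ndufa13, a complex I subunit also known as GRIM-19. It had 0, 191 and 90.6 CPM in healthy H4, H6 and H7, from 0, 4 and 3 UMIs, and 453, 478, 419 and 387 CPM in CIA mice S2, S3, S5 and S6 (log2 2.14, SE 0.564, adjusted p = 0.672). The CIA mice were close together and all above the healthy mice. However, Ndufa13 passed the filter on low counts through the CIA mice, where it is high, and not through the healthy mice. Its difference and p are therefore not free of that choice and are given as a description. Its CIA effect in muscle macrophages exceeded that in joint macrophages by 2.42 on the log2 scale (SE 0.789, adjusted p of the interaction 0.108), so the difference between organs did not pass. In the 6 comparisons of the CIA effect between organs, in macrophages and in fibroblasts, edgeR and DESeq2 called 0 members. At an unadjusted p below 0.05, edgeR had 0 to 2 in each. The share of all genes at that threshold is not given for them, so these counts are not read as an excess or a lack. Of all genes, 0.11% were called between lung and joint macrophages, 2.41% between muscle and joint, 1.2% between muscle and lung, 0.176% between muscle and joint fibroblasts and 0.0% between skin and either.

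The lowest adjusted p of any member was that of Uqcrq in lung macrophages, chosen after the values were seen. It ranged from 228 to 597 CPM (median 460) in 4 healthy mice and from 565 to 1508 CPM (median 866) in 6 CIA mice. The ranges overlapped narrowly, and the log2 difference was 0.99 (SE 0.299, adjusted p = 0.0586 by edgeR, 0.0447 by DESeq2). Without S2 edgeR gave 0.0243. Uqcrq passed the filter on low counts here through the CIA mice, where it is high, and not through the healthy mice alone. Its difference and p are therefore not free of that choice. In this comparison 6.51% of all genes were called. In muscle macrophages it was 438 ± 21.1 CPM in healthy and 671 ± 199 CPM in CIA mice without overlap (adjusted p = 0.723).

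Among lymphocytes, muscle T cells had 1.84% in healthy and 2.07% in CIA mice, while spleen B cells and NK cells had lower CIA means. Spleen B cells had 1.47% in healthy and 1.36% in CIA mice, and NK cells 1.87 and 1.80%. H3 was high in the spleen, at 1.95% in B cells against 1.27 to 1.34% in the other healthy mice. Without H3, B cells were at 1.31 and 1.36%, so the direction rested on that mouse, which also carries the prefix of the severe mice. Spleen monocytes had the second largest difference of the 11 cell types, with 1.80 ± 0.350% in healthy (1.50 to 2.30%) and 2.29 ± 0.305% in CIA mice (1.79 to 2.57%). The ranges overlapped over all mice but not within a prefix. H3, the only healthy mouse with the prefix of the severe mice, had 2.30% against 2.45 to 2.57% in S1, S2 and S3, and H4, H6 and H7 had 1.50 to 1.75% against 1.79 to 2.35% in S5, S6 and S8. Granulocyte markers were at 0.0722 to 0.102% in healthy and 0.268 to 2.40% in CIA monocytes, and their part was not tested. In muscle T cells, 1 member had an unadjusted p below 0.05, against 3.93% of all genes lower. Cox7a2l was 225 ± 42.7 CPM in healthy and 117 ± 46.7 CPM in CIA mice without overlap (log2 -0.98, SE 0.420, adjusted p = 0.716).

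The mt- protein genes moved the other way more often. Their share had a lower CIA mean in 4 of 5 all-cell and 9 of 11 cell type comparisons, although without H7 it was higher in lung macrophages (by 0.0509 percentage points) and in all lung cells (by 0.0307). The groups were apart in joint macrophages (0.746 ± 0.157% in 3 healthy and 0.418 ± 0.0541% in 4 CIA mice), muscle T cells (0.825 and 0.463%) and skin fibroblasts (0.850 and 0.568%). The skin difference rested largely on H7 (1.37%, against 0.616 to 0.762% in the other healthy mice). Without it the means were 0.678 and 0.568%, still apart, and the difference went from -0.282 to -0.110 percentage points. In muscle T cells the difference shrank from -0.361 to -0.111 percentage points when mice with 5 to 9 cells were added. There the 8 erythrocyte markers were at 0.991 to 1.82% in healthy and 0.0308 to 0.130% in CIA mice, and their part was not tested.

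In joint macrophages, 2 mt- genes passed the adjusted threshold, where 5.13% of all 273 genes tested were called lower. mt-Nd1, a complex I subunit, had 2324, 2857 and 2135 CPM in healthy H3, H4 and H7 and 1396, 1269, 1382 and 1066 CPM in CIA mice S1, S3, S5 and S8. It was lower in all 4 CIA mice (log2 -0.95, SE 0.219, adjusted p = 0.0223 by edgeR, 0.0599 by DESeq2), and leaving out H3, H4, H7, S1 or S3 ended the call (adjusted p from 0.0667 to 0.129). So did the sample prefix as a term (0.0521), plain library sizes (0.0603), the prefix CIA alone (0.384) and no filter on low counts (0.626). mt-Co1, the catalytic subunit of complex IV, had 1089, 2521 and 1180 CPM against 586, 607, 683 and 627 CPM (log2 -1.33, SE 0.324, adjusted p = 0.0315). H4 was far above the other healthy mice for mt-Co1, and without it the log2 difference was -0.89 (adjusted p = 0.141). The call was also lost without H7, S1 or S3 (0.0707, 0.0916 and 0.0667), with the prefix CIA alone (0.154) and without the filter (0.626). Granulocyte markers were at 0.0924 to 0.823% in healthy and 3.32 to 5.93% in CIA joint macrophages, and their part was not tested. No nuclear member among the 17 tested in these cells had an unadjusted p below 0.05 (DESeq2 called 0), and 11 lay above 0. The shares of all genes by these 2 rules are not given for joint macrophages. These counts are therefore not read as a lack, an excess or a contrast with the mt- genes.

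The number of nuclear member UMIs per mt- protein UMI joined both trends. Its CIA mean was higher in 5 of 5 all-cell and 11 of 11 cell type comparisons, by ratios from 1.10 to 2.24 in cell types, and the groups were apart in 4 cell types. With the prefix CIA alone, a check chosen after seeing the data, it was higher in 4 of 5 and 8 of 9, and lower in all lung cells (2.70 in healthy and 2.29 in CIA mice) and lung macrophages (2.72 and 2.33). Without S8 it was lower in spleen B cells. In joint fibroblasts it was 2.14 ± 0.0663 in healthy mice and 2.38, 7.86 and 4.18 in S1, S3 and S5, and in joint macrophages 2.23 to 3.15 and 4.25 to 5.87. In muscle T cells it was 1.91 to 2.69 and 3.78 to 5.55, and in spleen monocytes 2.86 to 3.99 and 4.03 to 9.40. These ratios share the mice of each organ and no test was made of them.

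Muscle of S5 stood apart from this pattern. Its mt- protein share was 2.10% in fibroblasts, 2.02% in macrophages and 2.63% in all cells, against 0.363 to 0.737% in all muscle cells of the other CIA mice. Without S5 the share in muscle macrophages was 0.400 ± 0.0347% in CIA and 0.794 ± 0.206% in healthy mice, with groups apart, while with S5 the CIA mean was above the healthy mean by 0.0111 percentage points. The nuclear member share of muscle macrophages was also apart without S5 (1.91 ± 0.0832% in healthy and 2.46 ± 0.144% in CIA mice).

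**Figure D4:**
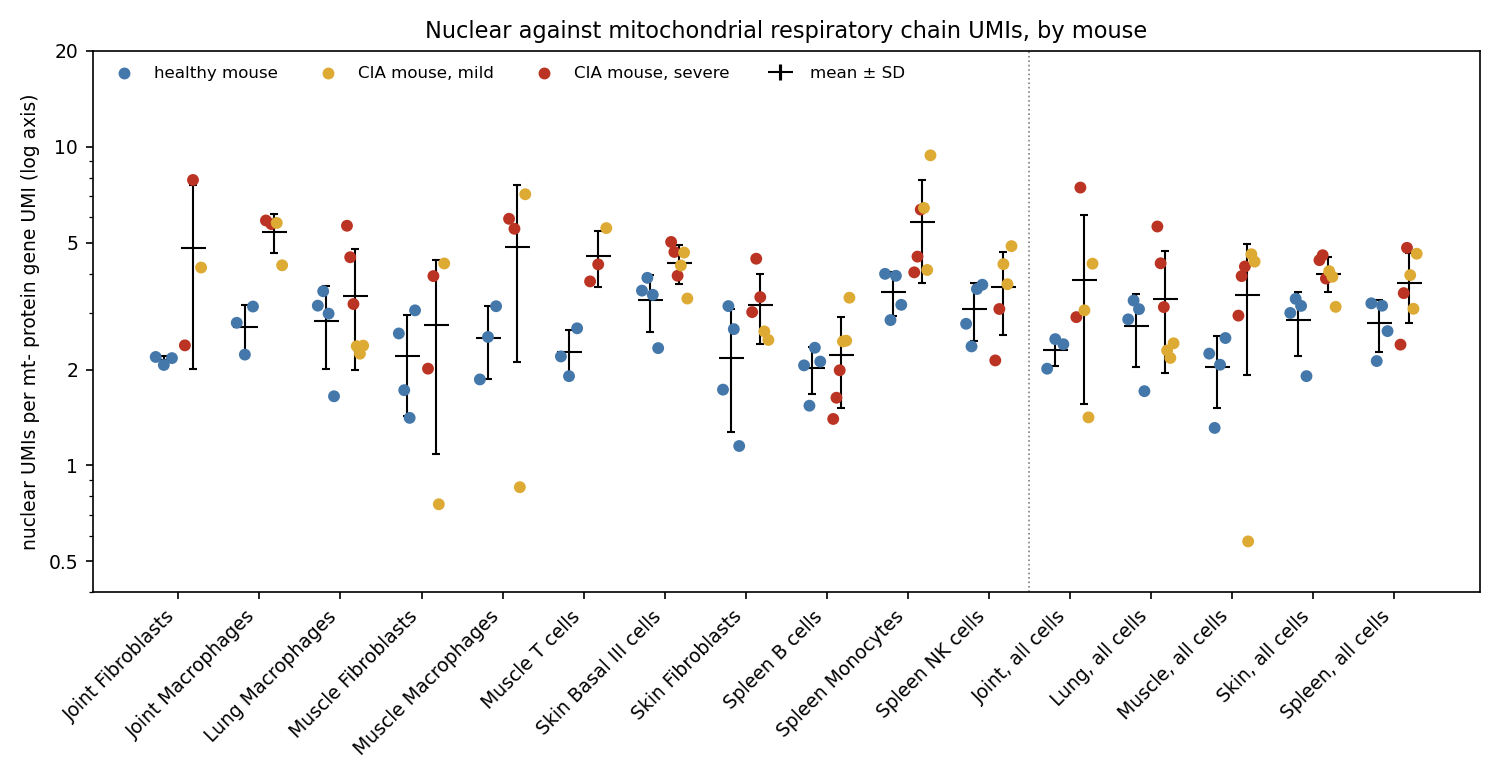
Nuclear member UMIs per mt- protein UMI (vertical log axis) in healthy and CIA mice for the 16 comparisons, 1 point per mouse (severe and mild CIA mice coloured apart) with the group mean ± SD. The CIA mean is above the healthy mean in all 16, and the low CIA points in muscle, down to 0.578, are S5.

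Organs were compared inside a label, with disease as a term, to ask whether a cell type carried the same subunits everywhere. In macrophages of muscle and lung, 3 of 32 members tested were called, against 29.2% of all 590 genes tested. They were 2 higher in muscle, against 14.9% of all genes, and 1 lower, against 14.2%. Between lung and joint macrophages 1 was called, lower in lung, against 7.29% of all genes lower and 14.2% in either direction. None was called between muscle and joint macrophages, where edgeR called 1.69% of all genes, 0 members had an unadjusted p below 0.05 and DESeq2 called 0.

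Uqcrh, the hinge subunit of complex III that docks cytochrome c, ranged from 195 to 477 CPM (median 325) in lung macrophages of 10 mice and from 447 to 876 CPM (median 749) in muscle macrophages of 7 mice. Of the muscle values, 1 lay inside the lung range. The log2 difference was 0.92 (SE 0.222, adjusted p = 0.0028). Reads of the pseudogenes Uqcrh-ps1 and Uqcrh-ps2, with 505 and 788 UMIs in the table, could have been split from this gene.

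Cox8a, the ubiquitous isoform of the smallest complex IV subunit, ranged from 140 to 503 CPM (median 219) in lung, 314 to 924 CPM (median 562) in joint and 224 to 796 CPM (median 525) in muscle macrophages. The lung was lowest on average but overlapped both other organs. It was lower in lung than joint by -0.97 (log2, SE 0.251, adjusted p = 0.00897), and higher in muscle than lung by 0.80 (SE 0.252, adjusted p = 0.0173, or 0.0540 with the mouse as a block, since the organs came from the same animals). Without S6 the muscle difference was 0.69 with an adjusted p of 0.0662. Cox8a passed the filter on low counts through the joint macrophages, where it is high, and not through the lung macrophages alone. Its differences and p are therefore not free of that choice.

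Ndufa7, a complex I subunit, went the other way. It ranged from 287 to 586 CPM (median 421) in lung and from 140 to 393 CPM (median 308) in muscle macrophages, a log2 difference of -0.76 (SE 0.250, adjusted p = 0.0223). Most lung values were above most muscle values, but the call was lost with plain library sizes (-0.55, adjusted p = 0.108), without S5 (adjusted p = 0.0644) and without H6 (0.0660). In the same comparison 32 of 52 cytosolic ribosomal protein genes were called higher in muscle.

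**Figure D5:**
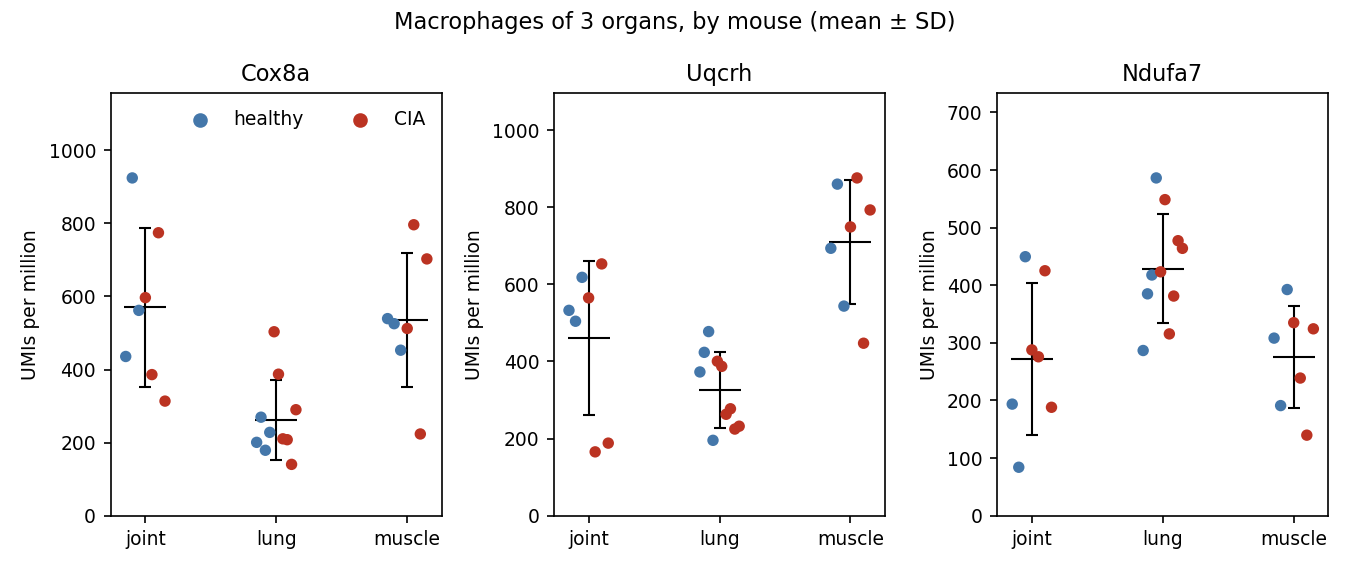
Level of Cox8a, Uqcrh and Ndufa7 (vertical axis, UMIs scaled to 1000000) in macrophages of joint (7 mice), lung (10) and muscle (7), healthy and CIA mice marked apart, with the mean ± SD. Uqcrh lies at 195 to 477 in lung and 447 to 876 in muscle, while Ndufa7 lies at 287 to 586 in lung and 140 to 393 in muscle.

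In fibroblasts, 2 of 32 members tested were lower in skin than joint, against 16.0% of all 754 genes lower and 28.6% in either direction. Cox8a ranged from 311 to 560 CPM (median 360) in joint and from 52.9 to 449 CPM (median 210) in skin (log2 -0.83, SE 0.293, adjusted p = 0.0364). Ndufa13 ranged from 269 to 521 CPM (median 399) in joint and from 127 to 387 CPM (median 296) in skin (log2 -0.67, SE 0.254, adjusted p = 0.0491). Both groups overlapped, and with the mouse as a block neither passed (adjusted p = 0.0817 and 0.138). Here too Cox8a passed the filter on low counts through the joint cells, where it is high, and not through the skin cells alone. Leaving out 1 library at a time ended the call of Cox8a in 7 of 23 cases and that of Ndufa13 in 16 of 23. Cox8a was thus called lower than in the joint in skin fibroblasts and in lung macrophages. The other organ differed between these 2 calls, and both used joint cells of the same libraries, so they are not independent. Between muscle and joint macrophages it was not called. No member was called between muscle and joint fibroblasts, where edgeR called 2.52% of all genes and DESeq2 called 0 members. Lower levels at an unadjusted p below 0.05 were found there for 5 members, against 12.7% of all genes. Between skin and muscle fibroblasts edgeR called no member and 25.2% of all genes at the adjusted threshold, while DESeq2 called 1 member. There 4 members had an unadjusted p below 0.05. The share of all genes at that unadjusted threshold is not given, so this count is not read as an excess or a lack. mt-Nd5 was higher in skin than muscle fibroblasts, at 613 ± 192 against 345 ± 153 CPM (log2 0.75, SE 0.260, adjusted p = 0.0418, or 0.296 with the mouse as a block), and 13 of 23 single libraries ended this call when left out.

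Other genes of the pathway were listed as regulators, assembly factors of complexes II to V, carriers and partners. Few were abundant enough to test. Uqcc2, an assembly factor of complex III, was lower in skin than joint fibroblasts (log2 -1.21, SE 0.400, adjusted p = 0.0254), and Slc25a5, an ADP/ATP carrier, was higher (0.81, SE 0.285, adjusted p = 0.0359). Usmg5, which associates with ATP synthase, was higher in skin than muscle fibroblasts (0.95, SE 0.287, adjusted p = 0.0149). No gene of these lists was called for CIA against healthy mice by edgeR.

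Severe and mild CIA mice, 3 against 3, were compared after the other values had been seen, and prefix and severity cannot be told apart in them. In all spleen cells 66 of 73 members tested lay above 0, against 52.4% of all genes, with a median of 0.53 against 0.04, and 18 had an unadjusted p below 0.05 higher and 0 lower, against 8.6% of all genes higher. Of these, 1 passed the adjusted threshold, against 10.2% of all genes. Uqcr11, the smallest complex III subunit, had 389, 382 and 465 CPM in S1, S2 and S3 and 259, 82.2 and 179 CPM in S5, S6 and S8 (log2 1.33, SE 0.373, adjusted p = 0.0400). The groups were apart, but healthy H3, which shares the prefix of the severe mice, had 619 CPM against 185 to 294 CPM in the other healthy mice. Granulocyte markers took 7.55 to 13.1% of spleen UMIs in severe and 1.97 to 2.74% in mild mice, and their part was not tested.

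Lung macrophages followed the same direction with no member called. Of 23 members tested, 6 had an unadjusted p below 0.05 higher and 0 lower in the severe mice, against 7.71% of all genes higher and 0.417% of all genes past the adjusted threshold. Ndufa4 was 401 ± 59.2 CPM in mild and 960 ± 123 CPM in severe mice, with groups apart (log2 1.10, SE 0.292, adjusted p = 0.126). Uqcr11 (208 ± 60.8 and 548 ± 127 CPM) and Atp5j (552 ± 190 and 1063 ± 298 CPM) were also apart. Uqcr11 passed the filter on low counts through the severe mice, where it is high, and not through the mild mice. Its difference is therefore a description, and the count of 6 can hold members that entered this way. In spleen B cells no nuclear member was called or had an unadjusted p below 0.05, although mt-Co1 (666 ± 38.5 to 1447 ± 139 CPM, log2 1.30, SE 0.322, adjusted p = 0.0251) and mt-Cytb (885 ± 103 to 1666 ± 205 CPM, log2 1.08, SE 0.315, adjusted p = 0.0427) were higher in the severe mice, where 1.39% of all genes were called higher and 5.93% in either direction. No nuclear member was called in the other 5 comparisons of severe with mild mice, where the share of all genes called was 0.329% for all lung cells, 0.0% for all muscle cells, 0.207% for Basal III cells, 0.0953% for all skin cells and 0.932% for spleen monocytes. At an unadjusted p below 0.05, the members higher were 5 in all lung cells, 4 in spleen monocytes, 1 in Basal III cells, 1 in all skin cells and 0 in all muscle cells. The share of all genes higher at that threshold is not given for them, so these counts are not read as an excess. DESeq2 was not run for these comparisons.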

How the data were processed

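The deposited table held UMI counts per gene and cell, which the authors made from Seq-Well reads with Drop-seq tools and STAR against GRCm38, after removing cells above 20% mitochondrial UMIs. GEO's processing notes name other builds (GRCh38 and mm9), and no coordinate of the table was used. Cell type labels were the authors', from clusters of denoised counts and marker genes. No doublet caller was run here.

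UMIs were summed over the labelled cells of a mouse (at least 10 cells) and compared where each group had at least 3 mice. Genes were filtered with filterByExpr, scaled by TMM and tested with the edgeR (4.0.16) quasi-likelihood test, adjusted by Benjamini-Hochberg over all genes tested, with a threshold of 0.05. DESeq2 (1.42.0) was an alternative. Organs were compared with disease as a term. The pipeline was tested on simulated counts. Groups came from sample titles. Replicates were separate mice, with 1 library per mouse and organ.

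Named genes were the members called and, in each comparison, up to 3 members of smallest p with non-overlapping groups. Members and lists were chosen with earlier results of these data known. UMI counting error limits low members, since library totals differed from 17748 to 1645734. Intervals cover counting error only and are 95% exact intervals.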

Additional observations from a re-analysis of the deposited data

Results flagged for a closer look

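In groups of 4 to 6 mice, a mouse far from the rest of its group was found for 10 of 50 groups of shares, where chance gives about 1 in 20. The mt- protein share of S5 was highest among the CIA mice in muscle fibroblasts (2.10%, median of the others 0.502%), muscle macrophages (2.02%, 0.394%) and all muscle cells (2.63%, 0.457%). The mt- protein share of H7 was highest among the healthy mice in lung macrophages (0.945%, 0.540%), all lung cells (0.917%, 0.556%), Basal III cells (1.44%, 0.975%) and all skin cells (1.42%, 0.816%). These 7 values come from 3 tissues of 2 mice, and the groups of an organ share cells.

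For the nuclear members, H3 was far above the other healthy mice in spleen B cells (1.95%, median of the others 1.32%). H4 was low in all muscle cells (1.39%, 1.60%) and H6 in all skin cells (2.55%, 2.71%). The cause of these distances was not tested.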

How the results depend on the processing

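The number of nuclear members called stayed within 1.5 times in 217 of 238 alternatives that kept all libraries and in 393 of 422 that left out 1. Of the organ comparisons, skin against joint fibroblasts (2 calls) gave 0 with plain library sizes, 1 without mt- genes, 4 without the filter, 1 with at least 5 cells, and 0 to 3 when 1 library was left out. Skin against muscle fibroblasts (0 calls) gave 1 by DESeq2, 1 with at least 5 cells, 1 with at least 20 cells, and 0 to 1 when 1 library was left out. Lung against joint macrophages (1 call) gave 3 by DESeq2, 3 with plain library sizes, 2 without mt- genes, 0 without the filter, and 1 to 2 when 1 library was left out. Muscle against lung macrophages (3 calls) gave 6 by DESeq2, 5 with plain library sizes, 0 without the filter, 1 with the prefix CIA alone, and 2 to 4 when 1 library was left out.

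Of the comparisons with 0 calls, joint fibroblasts gave 1 without the filter (Ndufa3), lung macrophages 1 by DESeq2 and 1 with plain library sizes (both Uqcrq), spleen monocytes 1 with plain library sizes (Cox4i1), and the difference of CIA effects between lung and joint macrophages 1 with the prefix CIA alone (Ndufa4). Leaving out 1 library gave 0 to 1 in joint macrophages (Ndufa4 without H3) and 0 to 1 in lung macrophages and in all lung cells (Uqcrq without S2). The cause was not tested.

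The CIA difference in the nuclear share moved to -0.145 percentage points in all lung cells and to -0.268 in skin fibroblasts with the prefix CIA alone, to 0.00418 in muscle T cells with at least 5 cells, and to 0.134 in all skin cells with equal weight of Basal III cells and fibroblasts. That in the mt- protein share of muscle T cells moved to -0.111 with at least 5 cells. Leaving out 1 mouse turned the sign of the nuclear difference in all joint cells (-0.148 to 0.274), muscle fibroblasts (-0.183 to 0.0879), Basal III cells (-0.00429 to 0.246), spleen B cells (-0.179 to 0.0477), spleen NK cells (-0.187 to 0.141) and all spleen cells (-0.0851 to 0.255), and that of the mt- protein difference in lung macrophages (-0.0919 to 0.0509), all lung cells (-0.100 to 0.0307), muscle fibroblasts (-0.327 to 0.213), muscle macrophages (-0.394 to 0.157) and all muscle cells (-0.296 to 0.157).

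With the mouse as replicate block, which pairs organs of 1 animal, skin against joint fibroblasts gave 0 calls, lung against joint macrophages 1 and muscle against lung macrophages 2. Mouse numbers shared by healthy and CIA mice (3 and 6) name different animals, whose deviations correlated from -0.194 to 0.267 and from -0.263 to 0.278. A replicate block on those numbers gave 0 calls wherever it could be fitted. The prefix CIA alone was not run for organs in fibroblasts, since not every group kept enough mice, and the comparison of severe with mild mice was added after the data were seen, with no alternatives. Low UMI counts left 20 members untested in every comparison with healthy mice.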

Other observations

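The 1144 cells without a label took no part in the comparisons. Summed over 35 libraries, the nuclear members held 1.81% of their UMIs, against 1.91% in labelled cells, and the mt- protein genes 0.901%, against 0.672%. By library, the nuclear share of the unlabelled cells ran from 0.788 to 3.46%.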
